A study of Homo sapiens with 6 samples.

Results

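Matrix metalloproteinases (MMPs), ADAMTS proteases and the tissue inhibitors of metalloproteinases (TIMPs) were examined in human fibroblasts made to express ARID1B, a DNA-binding subunit of the SWI/SNF chromatin remodelling complex. The genes were chosen by symbol: MMP1, MMP2, MMP3, MMP10, MMP14, TIMP1, TIMP2, TIMP3, ADAMTS1 and ADAMTS5, which are 10 of the 57232 genes in the expression table. RNA was sequenced from IMR90 cells, a strain of normal diploid fibroblasts from human fetal lung, with 3 libraries from cells carrying the empty vector and 3 from cells carrying an ARID1B cDNA. Cells of both groups were infected at passage 13 and selected with puromycin up to day 4 before RNA was taken on day 6, so the virus, the drug and the time in culture were common to the groups. The cDNA was in a viral vector, and the cells were infected populations rather than clones. The values are FPKM, fragments scaled to the length of the gene and to the size of the library.

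MMPs are zinc-dependent endopeptidases that are made as inactive precursors and, once activated, cleave collagens, proteoglycans, growth factors and cell surface proteins. TIMPs block the active site of MMPs, and TIMP3 also inhibits several ADAM and ADAMTS proteases. MMP1, MMP3 and MMP10 lie in the MMP gene cluster on chromosome 11 and are well-known components of the senescence-associated secretory phenotype, the mixture of proteases, cytokines and growth factors that senescent fibroblasts release.

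The libraries held between 63386813 and 91924514 reads or fragments each, a number worked back from the deposited FPKM, so counting error was small beside the spread between libraries for most members. The exceptions were MMP10, and MMP14 in vector cells, where the SD of 0.268% of the level lay under the counting error of 0.318% to 0.382%, and MMP3 in vector replicate 1 rested on few reads. ARID1B itself was at 1.88 ± 0.509 FPKM in vector cells and at 27.3 ± 5.79 FPKM in ARID1B cells (SD, n = 3 each), a log2 change of 3.29 with an adjusted p of 0.0255 (limma) that became 3.14 without vector replicate 2 (adjusted p = 0.0131). The ARID1B call was lost with no filter on low values (adjusted p = 0.135), with the replicate number as a block (0.105), without both libraries numbered 3 (0.838) and on leaving out each of the libraries in turn apart from vector replicate 2 (0.0601 to 0.323), at log2 changes of 3.16 to 3.46. Vector replicate 2 stood apart: on the first principal component of the tested genes, which held 63.8% of the variance, it scored 48.5 while the other libraries lay between −20 and 3.63. The log2 changes below are therefore given with and without it. All 10 fibroblast markers examined were expressed, with a summed level of 1960 to 2660 FPKM in vector cells and 1920 to 2690 FPKM in ARID1B cells. All 8 epithelial and all 8 blood cell markers were under 1 FPKM in all 6 libraries, and the summed levels were at most 0.256 and 0.117 FPKM. A single endothelial marker of the 5 present passed the filter, with sums of 0.903 to 3.68 FPKM in vector and 1.83 to 3.64 FPKM in ARID1B cells, and the 5 smooth muscle markers summed to 29.7 to 37.0 and 33.7 to 36.3 FPKM. The part of any of these in the results below was not tested, and a lower value in bulk RNA cannot tell fewer cells of a type from less RNA per cell.

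Promoters from RefSeq (GRCh38.p14) were matched for 4 of the 10 members, namely MMP10, MMP14, TIMP1 and TIMP3. The stretches before the transcription start are shown for the member with the lowest level (MMP10), the tested member that was lower in all ARID1B libraries (MMP14) and the inhibitor with the widest target range (TIMP3). They run 5′ to 3′ and end before any annotated transcript of the gene itself begins. Genes on the opposite strand were not taken into account. WTAPP1 overlaps both MMP10 and MMP1 and so runs through the MMP10 stretch, and SYN3 overlaps TIMP3. Capitals mark a match to the TATA box, searched as TATAAA, or to the GC box, searched as GGGCGG, on either strand. The MMP10 stretch is chr11:102780629-102780748 on the minus strand, that of MMP14 is chr14:22836465-22836556 on the plus strand, and that of TIMP3 is chr22:32801585-32801700 on the plus strand.
MMP10: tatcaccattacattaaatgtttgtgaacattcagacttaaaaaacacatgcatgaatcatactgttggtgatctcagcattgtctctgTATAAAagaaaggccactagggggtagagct
MMP14: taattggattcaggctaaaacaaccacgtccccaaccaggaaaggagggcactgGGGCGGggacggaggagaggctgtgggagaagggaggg
TIMP3: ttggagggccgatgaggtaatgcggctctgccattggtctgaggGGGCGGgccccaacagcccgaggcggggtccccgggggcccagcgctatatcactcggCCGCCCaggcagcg

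In windows of 120 bases before the RefSeq start, the motif search covered both strands, and the 3 motifs do not overlap one another in these windows. Distances are counted to that RefSeq start. For MMP14, TIMP1 and TIMP3 the annotated gene in GENCODE begins upstream of it, so the printed MMP14 and TIMP3 stretches end earlier. The whole TIMP1 window lies inside the annotated gene. MMP10 held a TATAAA that began 31 bases before the start and no GGGCGG, in a window with 36.7% G and C. MMP14 held 1 GGGCGG, which began 66 bases before the start (60.0% G and C), and TIMP1 held 1 at 45 bases (62.5% G and C). TIMP3 held 2, at 76 and 18 bases (72.5% G and C). Among 35116 RefSeq promoter windows of this length, 5.63% held a TATAAA and 34.0% a GGGCGG, and the median G and C content was 60.0%. TGAGTCA, the consensus AP-1 element, was in none of the 4 member windows and in 2.34% of all windows. These matches describe the letters of the windows only.

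No protease or inhibitor gene among the members passed the test between ARID1B and vector cells. Of the 10 members, 9 had a mean of at least 1 FPKM and were tested with limma, and none passed an adjusted p of 0.05 (3 of 10416 genes tested did, 0.0288%), nor did any with voom on recovered reads. ADAMTS5, an aggrecan-cleaving protease, was 2.72 times as high in ARID1B as in vector cells, and MMP14, the membrane-anchored activator of MMP2, was 1.25 times as high in vector as in ARID1B cells. These were the tested members whose groups did not overlap, though ADAMTS5 was tested only because its ARID1B values lifted its mean over the filter. At an unadjusted p of 0.05 the same members passed, 2 of 9, beside 10.6% of all genes tested. The median log2 change of the tested members was −0.07, with 4 positive and 5 negative, and that of all genes tested was −0.02. The members' median had the opposite sign without vector replicate 2, 0.10 with 5 positive and 4 negative, and that of all genes was −0.01. With 3 libraries a group the smallest p that an exact two-sided permutation test can give is 0.1, which both of these genes reached.

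**Figure D1:**
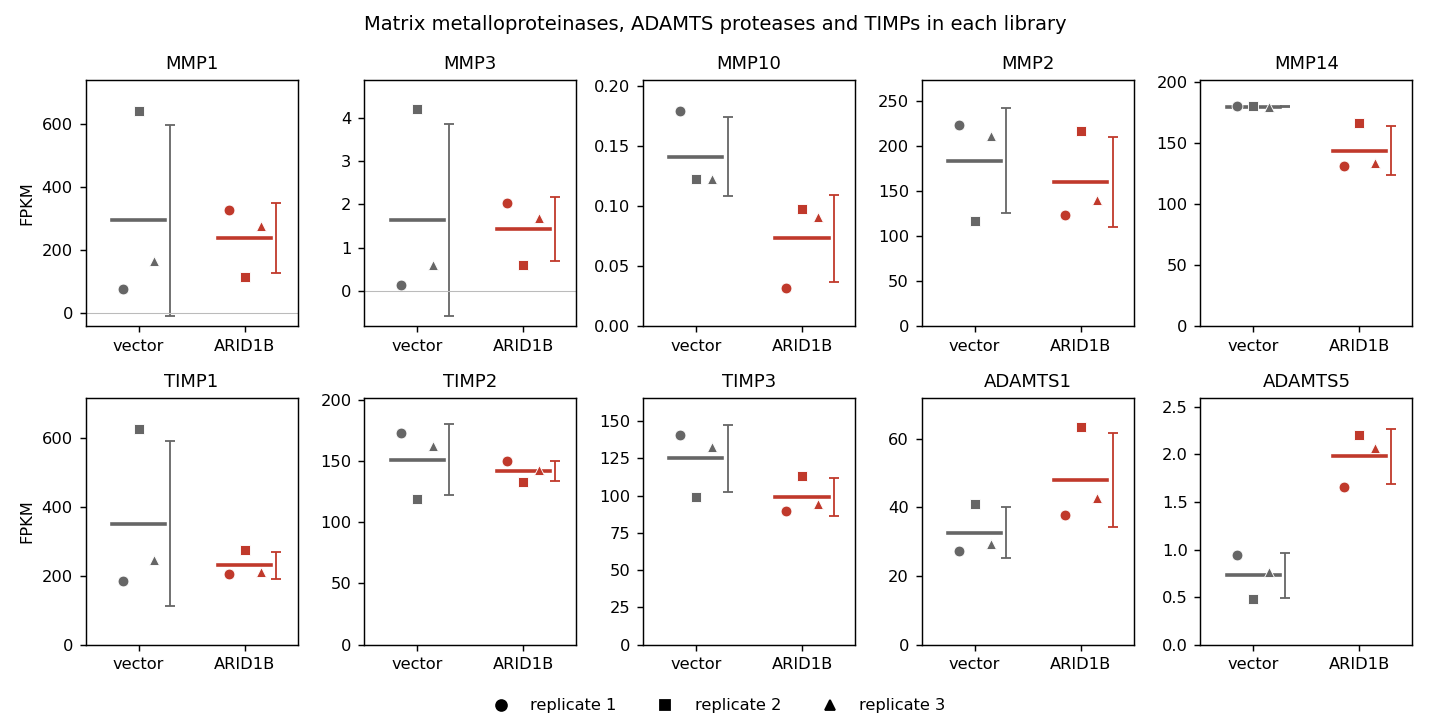
FPKM of the 10 genes in each library, in vector (grey) and ARID1B (red) cells, with a symbol for each replicate number, the group mean as a horizontal line and the SD as a bar (n = 3). MMP1, MMP3 and TIMP1 are highest in vector replicate 2, whereas ADAMTS5 is higher and MMP14 and MMP10 are lower in each ARID1B library than in each vector library.

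MMP1, the interstitial collagenase that makes the first cut in fibrillar collagen, was at 77.4, 642 and 165 FPKM in vector replicates 1, 2 and 3. In ARID1B replicates 1, 2 and 3 it was at 327, 113 and 278 FPKM. The vector libraries thus enclosed the ARID1B libraries, with both the highest and the lowest value. The means were 295 ± 304 FPKM for vector and 239 ± 112 FPKM for ARID1B cells (SD, n = 3 each), and the log2 change on log2(FPKM + 1) was 0.11 (SE 0.806, 95% interval −1.84 to 2.05, adjusted p = 0.968). Vector replicate 2 was 5.3 times the mean of the other vector libraries. Without it, the ARID1B mean was 1.97 times the vector mean, with a log2 change of 0.94 (95% interval −0.41 to 2.29, adjusted p = 0.356). The intervals of both fits include 0 as well as changes above 2-fold, so these libraries do not settle the direction of MMP1. Of the MMP1 transcript windows of 50 bases, 2.92% were shared with WTAPP1, which overlaps MMP1, MMP3 and MMP10 on the opposite strand and was itself under 1 FPKM in every library.

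MMP3 (stromelysin 1), which degrades proteoglycans and basement membrane and can activate MMP1, was much less abundant. It was at 0.146, 4.2 and 0.606 FPKM in the vector libraries and at 2.04, 0.61 and 1.68 FPKM in the ARID1B libraries, in replicate order. These values stood on 26, 841 and 85 reads and on 316, 100 and 341 reads. As for MMP1, vector replicates 2 and 1 were the highest and the lowest of the 6 libraries. The log2 change was 0.15 (SE 0.575, 95% interval −1.24 to 1.54, adjusted p = 0.931). Without vector replicate 2, which was 11.2 times the mean of the other vector libraries, the log2 change was 0.80 (95% interval 0.045 to 1.55), but the adjusted p was 0.192. The vector mean was then 0.376 FPKM, under the 1 FPKM of the filter, against 1.44 FPKM in ARID1B cells. MMP3 had passed that filter on its mean over all 6 libraries.

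MMP10 (stromelysin 2), the closest relative of MMP3 in the cluster, was near the limit of detection. It was at 0.179, 0.122 and 0.122 FPKM in vector and at 0.0316, 0.0971 and 0.0904 FPKM in ARID1B cells, which came from 60 reads over the 3 vector libraries and 32 over the 3 ARID1B libraries. Every vector library was above every ARID1B library, as for 11.1% of the genes tested. The exact permutation p was 0.1, which any gene without overlap gives here. Vector replicate 3 had 14 reads and ARID1B replicate 3 had 15, so their order came from the scaling to library size. The gene was under the filter and was not tested with limma. MMP3 and MMP10 share 59 windows of 50 bases in their transcripts, 3.0% of those of MMP3 and 3.45% of those of MMP10, and a read from such a window cannot be placed between them. MMP3 did not follow the MMP10 order: the library with the most MMP3 was a vector library, and the one with the least was too.

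The expression of the cluster was narrow. Of the 12 genes within 5 positions of MMP1, MMP3 or MMP10 on chromosome 11, 7 were in the table. All 7 were under 1 FPKM in every library and 2 were at 0 throughout, including MMP20, the enamel protease. The highest value among them was 0.145 FPKM, for the neutrophil collagenase MMP8. Among the genes of this neighbourhood in the table, MMP1 and MMP3 were the ones that reached 1 FPKM in a library. The mean was 267 FPKM for MMP1 and 1.55 FPKM for MMP3.

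MMP2 (gelatinase A), which cleaves denatured collagen and type IV collagen, was at 224, 117 and 211 FPKM in the vector libraries and at 123, 217 and 140 FPKM in the ARID1B libraries. Vector replicate 2 was here the lowest of the 6 libraries, at 0.538 times the mean of the other vector libraries, and ARID1B replicate 2 was next to the highest. The group means of 184 ± 58.4 and 160 ± 50 FPKM (SD, n = 3 each) overlapped, and the log2 change was −0.19 (SE 0.324, 95% interval −0.97 to 0.59, adjusted p = 0.833). It was −0.49 without vector replicate 2 (adjusted p = 0.302) and −0.09 after correction for GC content and transcript length (adjusted p = 0.969). An overlapping annotated gene on the same strand shared 3.44% of the MMP2 windows.

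MMP14 (MT1-MMP) is a transmembrane collagenase that, together with TIMP2, assembles the complex in which the MMP2 precursor is cut. It was at 181, 181 and 180 FPKM in the vector libraries, so that the highest library was 1.01 times the lowest. In the ARID1B libraries it was at 131, 167 and 134 FPKM. All 3 ARID1B libraries were therefore lower than all 3 vector libraries, as were 11.1% of the genes tested. The log2 change was −0.33 (SE 0.137, 95% interval −0.66 to −0.0039), with an unadjusted p of 0.0481 and an adjusted p of 0.469 in limma. Vector replicate 2 did not stand apart for this gene, and the log2 change without it was also −0.33 (adjusted p = 0.21). After correction of each library for GC content and transcript length the log2 change was −0.19 (adjusted p = 0.765).

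TIMP1, which inhibits most secreted MMPs and binds the MMP9 precursor, had a pattern of its own. It was at 185, 626 and 245 FPKM in the vector libraries and at 204, 274 and 212 FPKM in the ARID1B libraries. Vector replicate 2 was 2.91 times the mean of the other vector libraries, and ARID1B replicates 1 and 3 lay between those. With all libraries the log2 change was −0.42 (SE 0.447, 95% interval −1.5 to 0.66, adjusted p = 0.754), and without vector replicate 2 it was 0.10 (adjusted p = 0.81). After correction for GC content and length it was −0.17 (adjusted p = 0.929). The sign of the TIMP1 difference was thus set by 1 library.

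TIMP2, the inhibitor that also takes part in MMP2 activation by MMP14, was at 173, 119 and 162 FPKM in the vector libraries. It was at 150, 133 and 143 FPKM in the ARID1B libraries, all within the vector range. The log2 change was −0.07 (SE 0.173, 95% interval −0.49 to 0.34, adjusted p = 0.883). It was −0.24 without vector replicate 2 (adjusted p = 0.212) and −0.02 after the GC and length correction (adjusted p = 0.986). Of its 3603 transcript windows of 50 bases, 469 were shared with overlapping annotated genes, so part of its reads cannot be placed with certainty.

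TIMP3, the inhibitor that binds the extracellular matrix, was at 141, 99.1 and 133 FPKM in the vector libraries and at 89.4, 113 and 94.4 FPKM in the ARID1B libraries. ARID1B replicates 1 and 3 were below all vector libraries, and ARID1B replicate 2 was above vector replicate 2 only. The log2 change was −0.32 (SE 0.18, 95% interval −0.75 to 0.12, adjusted p = 0.588). Without vector replicate 2 the log2 change was −0.47 (95% interval −0.79 to −0.16, adjusted p = 0.105), which did not pass.

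ADAMTS1, a secreted protease of versican and aggrecan that also carries thrombospondin repeats, was at 27.2, 41.0 and 29.2 FPKM in the vector libraries. It was at 37.7, 63.3 and 42.6 FPKM in the ARID1B libraries. The groups overlapped through ARID1B replicate 1, which lay under vector replicate 2 and above the other vector libraries. Replicate 2 was the highest library of its group in both arms. The ARID1B mean was 1.47 times the vector mean, with a log2 change of 0.53 (SE 0.245, 95% interval −0.059 to 1.12, adjusted p = 0.509) that became 0.71 without vector replicate 2 (95% interval 0.15 to 1.26, adjusted p = 0.138).

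ADAMTS5, one of the main aggrecanases of cartilage, neighbours ADAMTS1 on chromosome 21. It was at 0.943, 0.476 and 0.763 FPKM in the vector libraries and at 1.66, 2.21 and 2.07 FPKM in the ARID1B libraries. The reads behind these were 688, 390 and 438 for vector and 1051, 1482 and 1727 for ARID1B cells. All 3 ARID1B libraries were higher than all 3 vector libraries, as were 9.44% of the genes tested. The means were 0.727 ± 0.236 and 1.98 ± 0.287 FPKM (SD, n = 3 each), and the log2 change was 0.79 (SE 0.137, 95% interval 0.46 to 1.12), with an unadjusted limma p of 0.000956 and an adjusted p of 0.232. All 3 vector libraries were under 1 FPKM, so ADAMTS5 reached the filter only through its ARID1B values. With no filter on low values the adjusted limma p was 0.3. A pseudocount of 1 compresses a gene at this level: with a pseudocount of 0.1 the log2 change was 1.36, and with voom on the recovered reads it was 1.5. Without vector replicate 2, the lowest of the vector libraries, ADAMTS5 passed the threshold (log2 change 0.68, 95% interval 0.42 to 0.95, adjusted p = 0.0426). That left 1 of 9 members past the threshold in that fit, higher in ARID1B, where 1.2% of all genes tested passed as higher and 1.91% as lower. The unadjusted limma p of ADAMTS5 barely moved, to 0.000872, and the adjusted p also depends on the p-values of the other genes. After correction for GC content and length the log2 change was 0.59 (adjusted p = 0.164).

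**Figure D2:**
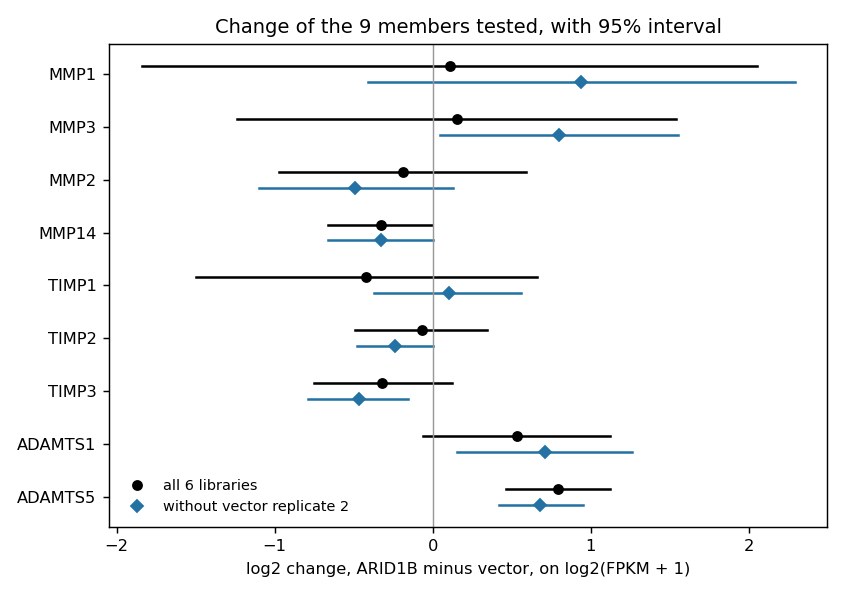
Log2 change on log2(FPKM + 1), ARID1B minus vector, for the 9 tested genes, with limma 95% intervals as lines, for all 6 libraries (black circles) and without vector replicate 2 (blue diamonds). ADAMTS5 lies right of 0 in both fits, MMP14 lies left of 0 at −0.33 in both, and MMP1, MMP3 and TIMP1 shift to the right when vector replicate 2 is left out.

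The libraries differed more within a group than between groups for the most variable members. The highest vector library was 28.8 times the lowest for MMP3 and 8.3 times for MMP1, spreads that 0.192% and 0.922% of the genes tested reached. The spread was 3.39 times for TIMP1, which 5.68% of genes reached. In the ARID1B libraries it was 3.34 times for MMP3 and 2.89 times for MMP1, reached by 1.22% and 1.64% of genes. Both enzymes thus varied widely in both groups, and the spread was wider in vector cells.

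The orders of the libraries were related for MMP1, MMP2 and MMP3, although no order was shared exactly between members. From high to low, MMP1 ran through vector 2, ARID1B 1, ARID1B 3, vector 3, ARID1B 2 and vector 1, which is also the order of the scores on the first principal component. MMP2 ran through exactly the reverse order. Of all genes tested, 3.73% had the order of MMP1 and 1.97% that of MMP2. MMP3 differed from MMP1 in a single exchange, of vector replicate 3 and ARID1B replicate 2 (2.95% of genes had its order). ADAMTS5, by contrast, put the ARID1B libraries first, in the order 2, 3, 1, and the vector libraries after them, in the order 1, 3, 2.

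**Figure D3:**
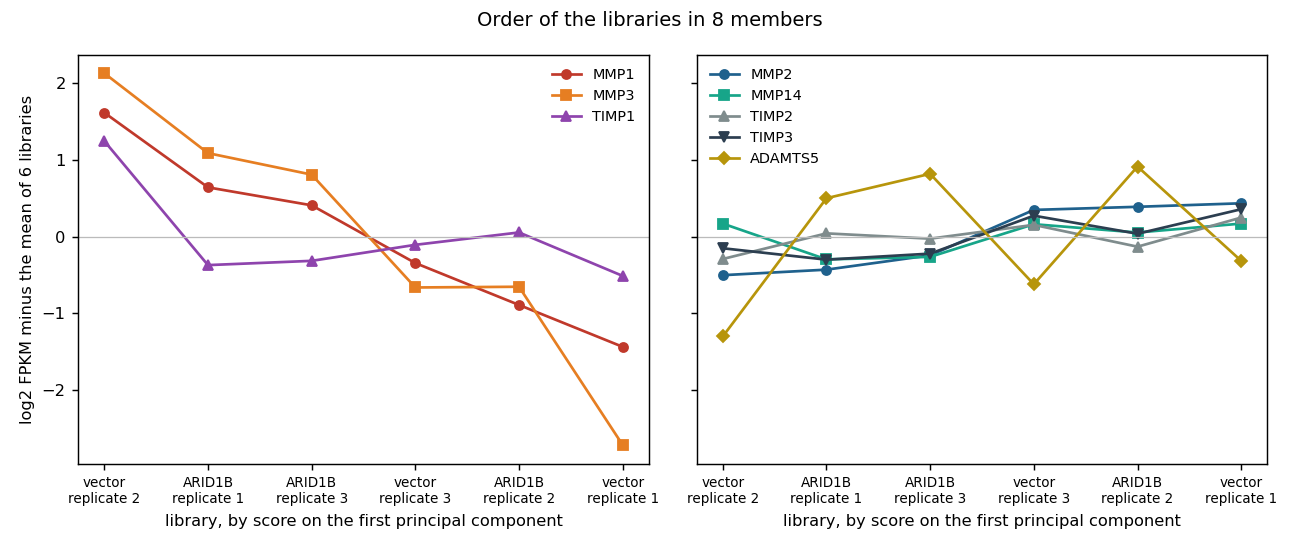
Log2 FPKM of 8 of the genes in each library, minus the mean of the 6 libraries, with libraries placed from left to right by their score on the first principal component. MMP1 falls at each step from vector replicate 2 to vector replicate 1 and MMP2 climbs at each step, whereas ADAMTS5 follows the group of the library.

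Replicate 3 lay between replicates 1 and 2 of its group for 8 of the 10 members in vector cells and for 10 of 10 in ARID1B cells. This also held for 85.0% and 69.2% of all genes tested. The sources used here describe the libraries as biological replicates, and nothing else in them sets replicate 3 apart. Where replicates are not fully separate cultures, the p-values cover only the spread between these libraries.

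The make-up of the protease and inhibitor pools differed from library to library. Over the 5 MMPs, the summed level was 482, 945 and 556 FPKM in the vector libraries and 582, 497 and 554 FPKM in the ARID1B libraries. MMP1 made up 16.0%, 68.0% and 29.7% of that sum in vector and 56.1%, 22.7% and 50.2% in ARID1B cells, so that the leading enzyme was MMP1 in vector replicate 2 and ARID1B replicates 1 and 3, and MMP2 in the other three. The sum of the 3 TIMPs was 500, 844 and 541 FPKM in vector and 443, 520 and 449 FPKM in ARID1B libraries. The MMP sum over the TIMP sum was 0.966, 1.12 and 1.03 in vector and 1.31, 0.957 and 1.23 in ARID1B libraries, and these groups overlapped. In vector replicate 2 both sums were high. MMP1 over TIMP1 ranged from 0.419 to 1.03 in vector and from 0.413 to 1.6 in ARID1B libraries. ADAMTS1 exceeded ADAMTS5 by 28.9, 86.2 and 38.3 times in vector and by 22.7, 28.7 and 20.5 times in ARID1B libraries, with ARID1B replicate 2 just under vector replicate 1. These sums, shares and ratios rest on the deposited lengths. The length was 3.24 times the longest transcript for TIMP1, 2.59 times for TIMP2 and 1.94 times for MMP2, but equal to it for MMP1. The MMP to TIMP ratio and its order across libraries therefore depend on the length used, and which pool was larger is not settled.

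By mean level over the 6 libraries, the order was TIMP1 (291 FPKM), MMP1 (267 FPKM), MMP2 (172 FPKM), MMP14 (162 FPKM), TIMP2 (147 FPKM), TIMP3 (112 FPKM), ADAMTS1 (40.2 FPKM), MMP3 (1.55 FPKM), ADAMTS5 (1.35 FPKM) and MMP10 (0.107 FPKM). Only 50 of the genes tested had a higher mean than TIMP1, and 56 had a higher mean than MMP1. On the deposited lengths the leading genes could not be ranked beyond their spread: TIMP1 was above MMP1 in 3 of 6 libraries, and MMP1 was above MMP2 in 3 of 6. On the deposited scale TIMP3, at 89.4 FPKM or more in every library, did not overlap ADAMTS1, at 63.3 FPKM or less. A wider step separated ADAMTS1 from MMP3 and ADAMTS5, which overlapped each other, with ADAMTS5 above MMP3 in 4 of 6 libraries. Levels between genes depend on the length used by the authors. The length recovered from the values was 3547 bases for TIMP1, which is 3.24 times its longest GENCODE transcript, and 9445 bases for TIMP2, which is 2.59 times. It was 1.94 times for MMP2, 1.63 times for ADAMTS1 and 1.61 times for MMP14, while for MMP1 and TIMP3 it was the same as the transcript. On the length of the longest transcript the mean levels would be 942 for TIMP1, 379 for TIMP2, 334 for MMP2, 267 for MMP1 and 262 for MMP14, so the order of the leading genes depends on the length. TIMP1 would be at 2030 against 642 for MMP1 in vector replicate 2. In the other libraries TIMP1 would be at 599 or more against 327 or less for MMP1. The highest ADAMTS1 library would then be at 103, above the lowest TIMP3 library at 89.4.

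**Figure D4:**
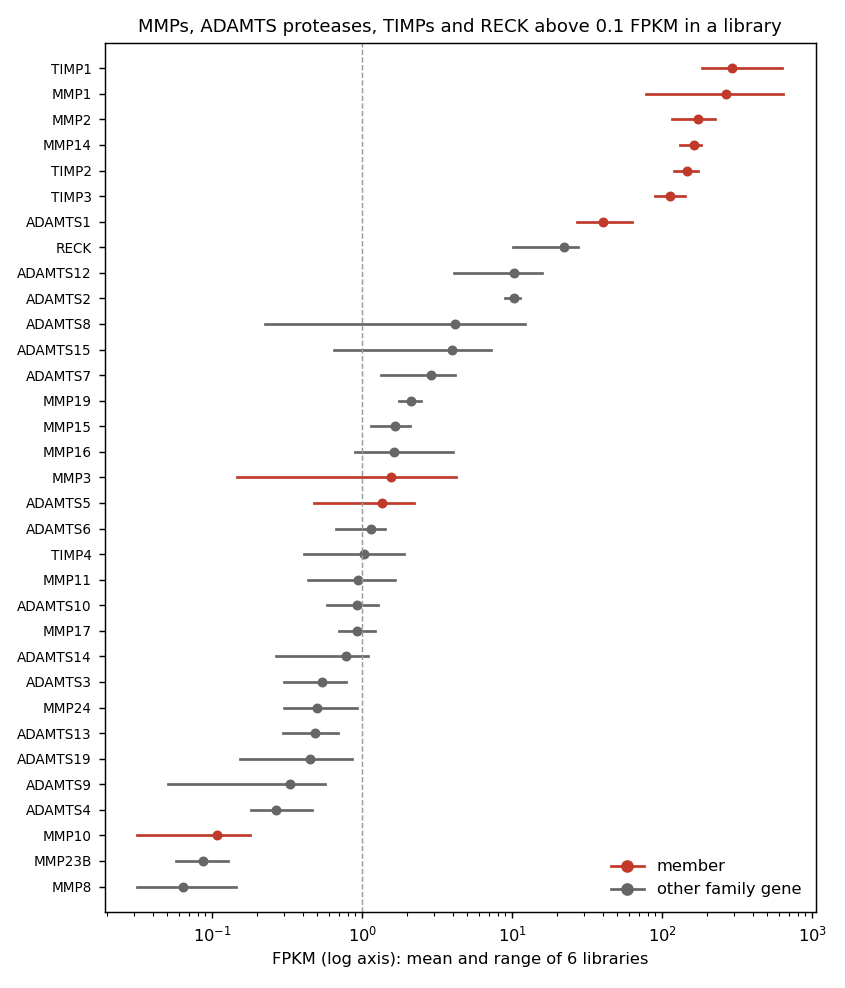
Mean and range of FPKM over the 6 libraries, on a log axis, for the 33 of 47 MMP, ADAMTS, TIMP and RECK genes that exceed 0.1 FPKM in a library, with the 10 genes described here in red and a dashed line at 1 FPKM. TIMP1, MMP1, MMP2, MMP14, TIMP2, TIMP3 and ADAMTS1 head the order, and MMP3, ADAMTS5 and MMP10 lie among the other family genes.

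Most other MMPs were scarcely expressed. Of 18 further MMP genes, 13 were under 1 FPKM in every library and 3 were tested. None of the 3 passed in limma or with voom, and 0 did at an unadjusted limma p of 0.05, beside 10.6% of all genes tested. All had a negative log2 change, with a median of −0.18 (−0.23 without vector replicate 2). The log2 change was −0.18 for MMP19, a secreted protease of basement membrane proteins (adjusted p = 0.581), and −0.23 without vector replicate 2. It was −0.41 and −0.15 for the membrane-type enzymes MMP16 and MMP15 (adjusted p = 0.709 and 0.748), and without that library −0.011 and −0.27.

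Of 17 other ADAMTS genes, 6 were tested and none passed in limma or with voom. At an unadjusted limma p of 0.05, 1 did, beside 10.6% of all genes tested. The log2 changes were 4 positive and 2 negative, with a median of 0.10. There were 3 of each sign without vector replicate 2, and the median was −0.01. ADAMTS12, which cleaves cartilage oligomeric matrix protein, was at 7.29, 4.07 and 6.6 FPKM in vector and at 15.7, 12.2 and 15.4 FPKM in ARID1B cells. Its groups did not overlap, as for 9.44% of all genes tested in that direction. The log2 change was 1.17 (adjusted p = 0.264), and it passed without vector replicate 2 (0.95, adjusted p = 0.0342). ADAMTS8 differed by 1.33 on the log2 scale with overlapping groups (adjusted p = 0.515), and ADAMTS6 by 0.19 (adjusted p = 0.662). Vector replicate 2 held ADAMTS8 at 0.225 FPKM against 2.78 and 2.58 FPKM in the other vector libraries, and without it the differences were 0.80 for ADAMTS8 and 0.06 for ADAMTS6. Without vector replicate 2, 1 gene of this list passed in each direction, ADAMTS12 as higher and ADAMTS15 as lower (log2 change −0.93, adjusted p = 0.0407), the second being named after its values were seen. In that fit 1.2% of all genes tested passed as higher and 1.91% as lower.

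Among 11 ADAM sheddases, membrane proteases that release growth factors and receptors from the cell surface, 7 were tested, 6 with a positive log2 change, and the median was 0.49, which became 0.30 without vector replicate 2. None passed with all libraries in limma or with voom. At an unadjusted limma p of 0.05, 2 did, beside 10.6% of all genes tested. ADAM12 was at 1.48, 0.419 and 1.31 FPKM in vector and at 3.29, 3.11 and 3.35 FPKM in ARID1B cells, with a log2 change of 1.08 (adjusted p = 0.285). ADAM23, a family member without protease activity, was at 4.49, 6.73 and 4.74 FPKM and at 8.23, 8.01 and 8.08 FPKM, with a log2 change of 0.54 (adjusted p = 0.333). Both had no overlap between groups, as for 9.44% of all genes tested in that direction. Both passed without vector replicate 2 (0.83 and 0.70, adjusted p = 0.0201 and 0.0266), where 1.2% of all genes tested passed as higher. The log2 change of ADAM19 was 0.49 (adjusted p = 0.493), and 0.67 without that library.

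Of 9 other inhibitors and regulators of these proteases, 5 were tested and none passed in limma or with voom. At an unadjusted limma p of 0.05, 2 passed as higher and 1 as lower, beside 10.6% of all genes tested in either direction. The log2 changes were 2 positive and 3 negative, with a median of −0.13. The median turned to 0.36 without vector replicate 2, with 3 positive and 2 negative. RECK, a membrane-anchored inhibitor of MMP2, MMP9 and MMP14, was at 22.6, 10.1 and 18.8 FPKM in vector and at 27.2, 26.0 and 27.3 FPKM in ARID1B cells, with a log2 change of 0.68 (adjusted p = 0.467) that became 0.36 without vector replicate 2. SPOCK1 (testican 1) differed by 0.74 on the log2 scale (adjusted p = 0.41), and by 0.54 without it. PCOLCE, which is in the list but enhances procollagen processing rather than inhibiting a protease, went the other way, with a log2 change of −0.96 (adjusted p = 0.327). RECK and SPOCK1 were higher without overlap between groups, as were 9.44% of all genes tested. PCOLCE was lower without overlap, as were 11.1%. PCOLCE and TIMP4, the fourth TIMP, were the genes of the list that passed without vector replicate 2, both as lower in ARID1B (−1.19 and −0.75, adjusted p = 0.0473 and 0.0476), TIMP4 being named after its values were seen. In that fit 1.91% of all genes tested passed as lower. TIMP4 reached the filter only through its vector values, with a mean of 0.662 FPKM in ARID1B cells.

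Of 14 activators and receptors of MMPs, 8 were tested and none passed in limma or with voom. At an unadjusted limma p of 0.05, 1 did, beside 10.6% of all genes tested. The median log2 change was −0.08 (3 positive, 5 negative). This median turned to 0.06 without vector replicate 2 (5 positive, 3 negative). CD44, the hyaluronan receptor that can hold MMP9 and MMP14 at the cell surface, was at 62.4, 70.8 and 62.9 FPKM in vector and at 93.2, 87.4 and 95.4 FPKM in ARID1B cells, without overlap. Its log2 change was 0.49 (adjusted p = 0.301), and it passed without vector replicate 2 (0.55, adjusted p = 0.0426). Among all genes tested, 9.44% were higher without overlap, and 1.2% passed as higher without that library. PLAT, the tissue plasminogen activator, had −0.45 (adjusted p = 0.495), and BSG (basigin, an inducer of MMPs) had −0.25 (adjusted p = 0.689). These became −0.59 and −0.054 without that library.

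Of 13 matrix substrates, 11 were tested and none passed in limma or with voom. At an unadjusted limma p of 0.05, 3 passed as higher and 1 as lower, beside 10.6% of all genes tested in either direction. The log2 changes were 6 positive and 5 negative, with a median of 0.17. Leaving out vector replicate 2 turned the median to −0.24, with 3 positive and 8 negative. COL4A1, a chain of the type IV collagen of basement membranes that MMP2 cleaves, was at 36.8, 25.3 and 34.6 FPKM in vector and at 88.4, 97.4 and 91.0 FPKM in ARID1B cells, with a log2 change of 1.51 (adjusted p = 0.092). The log2 change was 0.71 for its partner chain COL4A2 (adjusted p = 0.194) and 0.42 for LAMC1, a laminin chain (adjusted p = 0.342), the latter 0.34 without vector replicate 2. All 3 were higher without overlap between groups, as were 9.44% of all genes tested. COL4A1 and COL4A2 were the genes of the list that passed without vector replicate 2, with log2 changes of 1.35 and 0.67 (adjusted p = 0.0145 and 0.0396). In that fit 1.2% of all genes tested passed as higher.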

How the data were processed

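Gene expression in IMR90 cells was taken from the table the authors deposited, which holds FPKM values for 57232 genes in 6 libraries (vector and ARID1B, 3 each, grouped by sample title). The tools in the submitters' processing notes are HTSeq 0.5.3p9, TopHat2 2.0.11 and DESeq2, and the build is hg19. Their roles are not stated, and the strand setting of the counting is not given in the sources used here. Groups were compared with limma 3.58.1 (variance trend, R 4.3.3) on log2(FPKM + 1) over the 10416 genes whose mean reached 1 FPKM, and p-values were adjusted over all of them by Benjamini-Hochberg (threshold 0.05). FPKM are not counts, so no count model was the main test, and fold changes of low genes are compressed by the pseudocount. Exact permutation tests were two-sided (scipy 1.17.1, Python 3.11.15), and figures were drawn with matplotlib 3.10.9.

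Reads were recovered from the FPKM steps. All genes tested gave whole reads in the 6 libraries (100%, within 0.002 reads), although a divisor common to a gene's 6 values would make its reads too small by that factor. GENCODE v29 (GRCh38) gave transcript lengths, GC content and windows shared between genes. It is another build than hg19, so no coordinate was carried between them. Promoters were matched by symbol to RefSeq (GRCh38.p14).

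The genes named are the 10 members, ARID1B and, from each wider list, up to 3 tested genes with the smallest limma p, apart from those said to be named after their values were seen. Members and lists were chosen with earlier results of these data known. Alternatives were another pseudocount (0.1), no filter or one at a mean of 5 FPKM, rescaling by median ratio or quantiles, a fit without the trend, a block for the replicate number, leaving out each library or both numbered 3, a GC and length correction, and voom on recovered reads.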

Additional observations from a re-analysis of the deposited data

How the results depend on the processing

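With all libraries 3 genes passed in limma as higher in ARID1B and 0 as lower (483 and 619 at an unadjusted p of 0.05). Without a filter on low values 0 passed as higher (1035 higher and 1262 lower unadjusted), with the GC and length correction 5 and with voom on the recovered reads 1. Without both libraries numbered 3 it was 0 (87 higher and 27 lower unadjusted). The replicate block gave 0 (342 and 262 unadjusted). Same-numbered libraries did not deviate from their group means together (correlations of −0.46, −0.43 and −0.17 for replicates 1, 2 and 3). Such deviations sum to 0 within each group, so these correlations cannot tell whether same-numbered libraries shared a batch. Leaving out 1 library gave 0 to 125 genes as higher and 0 to 199 as lower, with the upper ends without vector replicate 2, and 0 to 1 member as higher. Leaving out 1 library also turned the log2 change of MMP1 (−0.58 to 0.94), MMP3 (−0.29 to 0.80), TIMP1 (−0.78 to 0.10) and TIMP2 (−0.24 to 0.03). Without both libraries numbered 3, MMP1 was at −0.22, MMP3 at −0.14 and MMP2 at 0.01, and TIMP2 was at 0.03 after quantile normalization. The cause was not tested. ADAMTS1 (0.32 to 0.71), ADAMTS5 (0.59 to 1.5), MMP14 (−0.45 to −0.19) and TIMP3 (−0.47 to −0.22) kept their sign under the alternatives run. Depth limits MMP10, the vector spread of MMP14 and, in vector replicate 1, MMP3.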
